A study of Mus musculus with 29 samples.

Results

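The regenerating mouse digit tip was compared at day 14 and at day 7 after amputation in animals with intact hindlimb nerves, as the normal course of regeneration. The members, chosen by their surgery and day labels, are the 6 RNA-seq libraries of sham-operated mice at those days, 3 per day, of 29 samples in the series and 17 in its time course. Sham mice had the same operation on the left hindlimb as mice with spared nerve injury (SNI), but the nerve was left whole; in SNI mice 2 branches of the sciatic nerve, the tibial and the common peroneal, were cut. Amputation through the third phalanx followed 5 days after surgery in both groups. The tissue was the digit beyond the metacarpophalangeal joint, as the labels name it, with the nail removed. It therefore included tissue proximal to the stump as well as the regenerate. The groups compared here are sham at day 14, sham at day 7, SNI at day 14 and SNI at day 7, each with 3 libraries that the labels call biological replicates. For its estimate of the spread, the main fit also held the day 21 libraries, 2 of sham and 3 of SNI. The labels state neither strain, age nor sex, nor which mice were collected together.

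A mouse digit tip amputated through the terminal phalanx regrows. Osteoclasts, multinucleate cells of the macrophage lineage that fuse and then dissolve bone with acid and proteases, first erode the stump, the epidermis closes over it, and a blastema of dividing mesenchymal cells forms underneath. Osteoblasts then lay down new bone directly in that mesenchyme, while the nail organ, whose stem cells signal to the blastema through Wnt, keeps growing. The cytokine RANKL (Tnfsf11) drives osteoclast formation through its receptor RANK (Tnfrsf11a), and the decoy osteoprotegerin (Tnfrsf11b) binds RANKL away from it.

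The 3 libraries of day 14 held 40467819, 49758972 and 38847658 counts and the 3 of day 7 held 43293409, 44915060 and 45715611. Pairwise Pearson correlations of log2 CPM (CPM, the usual per-library scaling of counts, here on the TMM-scaled library size) lay between 0.988 and 0.99 within day 14, between 0.974 and 0.988 within day 7 and between 0.977 and 0.984 across the days. The day 7 libraries were the more scattered group. On the first principal component of the 6 libraries, which carried 38.5% of the variance, the day 14 libraries scored -28.35, -14.15 and -21.81 and the day 7 libraries -12.78, 32.97 and 44.11, so that day 7 replicate 1 lay beside day 14. The long nuclear RNA Xist, at 275, 216 and 250.3 CPM at day 14 and 321, 146 and 114 CPM at day 7, separated the same pair of day 7 libraries. The Y-linked genes Kdm5d, Eif2s3y and Uty had 0 counts at both days, and Ddx3y had 2 counts at day 14 and 0 at day 7. Summed ribosomal protein genes gave 49435, 59576 and 53363 CPM at day 14 and 53211, 65986 and 78991 CPM at day 7. Markers of the tissue were present: keratins of the epidermis, bone, vessel and Schwann cell genes were all measured, and skeletal muscle genes were near background, with 6 of 13 markers tested and a sum of 3.30 to 3.98 CPM at day 14 and 2.39 to 3.75 CPM at day 7. The cause of the position of day 7 replicate 1 was not tested.

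No gene passed an adjusted p of 0.05 between day 14 and day 7 in the edgeR quasi-likelihood fit of all 17 time course libraries, which had a biological coefficient of variation of 0.393. Of 16084 genes tested, 0 were called (0%), the smallest adjusted p was 0.99994, and 315 genes (1.96%) had an unadjusted p under 0.05, 145 higher (0.902%) and 170 lower (1.06%) at day 14. The 17 libraries included sham day 21 replicate 1, with a TMM factor of 0.633, and SNI day 7 replicate 2, with 0.761. Without them edgeR called 0 genes, and 775 had an unadjusted p under 0.05. Fitting the 6 sham libraries alone lowered the coefficient of variation to 0.179 and called 11 of 15326 genes (0.0718%). Of those, 6 rose (0.0391%) and 5 fell (0.0326%) at day 14. In the same fit 1722 genes (11.2%) had an unadjusted p under 0.05, 908 higher (5.92%) and 814 lower (5.31%). DESeq2 called 2 genes (0.00992%), with log2 fold changes of -23.6 and -24.8, where the lowest in the fit of 17 libraries was -10.9. Voom of limma, with a quality weight for each sample, called 1780 (11.1%). Those weights were 2.61, 3.41 and 2.45 for the day 14 libraries and 0.808, 7.32 and 1.29 for those of day 7. The day 7 level in voom thus leaned mainly on replicate 2. The 11 genes were all among the voom calls, with adjusted p between 0.00274 and 0.0159, and none was called by DESeq2 or in the fit of 17 libraries. Each stayed called in 2 of the 6 fits that left out 1 of the 6 libraries, those without day 7 replicate 1, which called 2117 genes, and without day 7 replicate 3, which called 50. The other 4 fits called none, and the highest adjusted p of each gene over the 6 fits lay between 0.193 and 0.214.

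Most results that follow are therefore given as values and as separation of libraries, and "rose" and "fell" are kept for the 11 genes of the 6-library fit. As background for that separation, all 3 day 14 libraries lay above all 3 day 7 libraries for 1305 of the 16084 genes (8.11%) and below them for 1510 (9.39%), and the median log2 fold change of all genes was -0.01. With 1 library left out these shares were larger, at 10.1% to 12.8% higher and 11.6% to 15.7% lower, except without day 7 replicate 1, when they were 27.1% higher and 23.7% lower. Fold changes are log2 of day 14 over day 7, ± the standard error (SE) of the fit of 17 libraries unless the 6-library fit is named.

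Genes of bone resorption were lower at day 14. Tartrate-resistant acid phosphatase (Acp5), the enzyme by which osteoclasts are usually recognised, measured 87.7, 73.6 and 70.0 CPM at day 14 and 224, 319.7 and 331 CPM at day 7. The highest day 14 library was well below the lowest day 7 library. Its mean was 77.1 ± 9.35 CPM at day 14 and 291 ± 58.6 CPM at day 7 (SD, n = 3 each), a log2 fold change of -1.92 ± 0.57. In the 6-library fit Acp5 fell, with a log2 fold change of -1.92 ± 0.18 and an adjusted p of 0.0367 by edgeR. Cathepsin K (Ctsk), the protease that digests bone collagen, had 140.1, 91.0 and 114 CPM at day 14 and 314, 508 and 518 CPM at day 7, a log2 fold change of -1.96 ± 0.67. The gelatinase Mmp9, which osteoclasts also secrete, had 81.1, 35.5 and 55.8 CPM at day 14 and 259.6, 305 and 262 CPM at day 7 (-2.26 ± 0.97). Neither gene overlapped between the days, and neither passed the threshold in the fit of 17 or of 6 libraries. In these bulk samples, fewer cells of a type and less RNA per cell cannot be told apart.

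Of the 9 genes of the resorption machinery, all tested, 7 had lower and 2 higher fitted values at day 14, 6 lay below day 7 without overlap, against 9.39% of all genes, and none above, and the median log2 fold change was -0.85. Besides Acp5, Ctsk and Mmp9, the proton pump genes were among them. The osteoclast pump subunit Atp6v0d2 had 4.82, 1.77 and 2.57 CPM at day 14 and 8.51, 12.7 and 14.0 CPM at day 7. The pump subunit Tcirg1 had 19.5, 15.0 and 15.3 CPM at day 14 and 29.9, 31.9 and 27.6 CPM at day 7. The chloride channel partner Ostm1 had 34.5, 33.2 and 32.5 CPM at day 14 and 41.1, 41.3 and 40.2 CPM at day 7. The difference was thus steep for Atp6v0d2 (-1.94 ± 0.88) and shallow for Ostm1 (-0.29 ± 0.17). The other 3 members overlapped between the days. The chloride exchanger Clcn7 had 46.4, 46.7 and 50.5 CPM at day 14 and 53.2, 44.8 and 47.8 CPM at day 7. Carbonic anhydrase 2 (Car2) had 25.2, 25.5 and 17.0 CPM at day 14 and 14.0, 18.2 and 23.2 CPM at day 7. The anion exchanger Slc4a2 had 53.3, 49.1 and 54.8 CPM at day 14 and 49.8, 43.3 and 42.6 CPM at day 7. For these genes the log2 fold changes were -0.02 ± 0.26, 0.29 ± 0.47 and 0.21 ± 0.50, all smaller than their errors. Summed over the 9 genes, day 14 gave 493, 371 and 412 CPM and day 7 gave 994, 1324 and 1305 CPM.

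The genes of osteoclast differentiation and fusion were lower still in relative terms, at far lower counts. The fusion receptor Dcstamp had 0.769, 0.515 and 1.01 CPM at day 14 and 2.77, 4.87 and 4.47 CPM at day 7. Its partner Ocstamp had 1.28, 0.458 and 1.11 CPM at day 14 and 2.95, 3.61 and 2.94 CPM at day 7. The co-stimulatory receptor Oscar had 0.652, 0.229 and 0.313 CPM at day 14 and 1.79, 2.43 and 2.98 CPM at day 7. All 3 genes separated the days, with log2 fold changes of -2.40 ± 0.87 for Dcstamp, -1.74 ± 0.89 for Ocstamp and -2.59 ± 1.05 for Oscar. The calcitonin receptor Calcr, a late osteoclast marker, was close to the detection limit at day 14, with 0.0233, 0.0572 and 0 CPM, against 0.313, 0.326 and 0.398 CPM at day 7. Integrin beta 3 (Itgb3), with which osteoclasts hold on to bone, had 16.3, 13.5 and 12.5 CPM at day 14 and 23.1, 33.9 and 34.2 CPM at day 7. These ranges did not meet. Siglec15, a lectin needed for osteoclast maturation, had 0.629, 0.153 and 0.289 CPM at day 14 and 0.670, 1.26 and 0.965 CPM at day 7. The transcription factor Jdp2 had 11.8, 9.52 and 10.6 CPM at day 14 and 14.7, 17.3 and 14.9 CPM at day 7. Both separated the days by small margins. Of the 9 genes, all tested, 8 were lower at day 14 without overlap, against 9.39% of all genes, and the median log2 fold change was -1.44. Leaving out any single library left 8 genes without overlap, against 11.6% to 23.7% of all genes, and a median between -2.02 and -1.08.

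The exception was Nfatc1, the master transcription factor of osteoclasts that other cells of the digit also express, with 61.3, 54.5 and 47.5 CPM at day 14 and 67.6, 50.4 and 42.1 CPM at day 7. Its ranges overlapped and its sign turned when single libraries were left out. RANK itself (Tnfrsf11a) had 7.62, 7.59 and 9.93 CPM at day 14 and 12.5, 12.0 and 10.4 CPM at day 7, a small separation (-0.48 ± 0.39). RANKL (Tnfsf11) had 1.68, 1.54 and 1.20 CPM at day 14 and 3.84, 5.36 and 4.17 CPM at day 7, so the lowest day 7 library was more than double the highest day 14 library. Its log2 fold change was -1.59 ± 0.61, and it was called in neither fit. The decoy Tnfrsf11b had 8.57, 8.87 and 7.00 CPM at day 14 and 9.42, 8.76 and 7.70 CPM at day 7 and overlapped. Of the growth factors of the lineage, Csf1 had 31.9, 32.7 and 37.5 CPM at day 14 and 47.9, 49.1 and 32.3 CPM at day 7. Il34 had 26.9, 37.6 and 38.7 CPM at day 14 and 45.2, 43.6 and 44.0 CPM at day 7. Csf1 overlapped through day 7 replicate 3, and Il34 was lower at day 14 without overlap. Among these 4 genes 2 separated the days, against 9.39% of all genes, and all 4 were lower, with a median of -0.35.

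**Figure D1:**
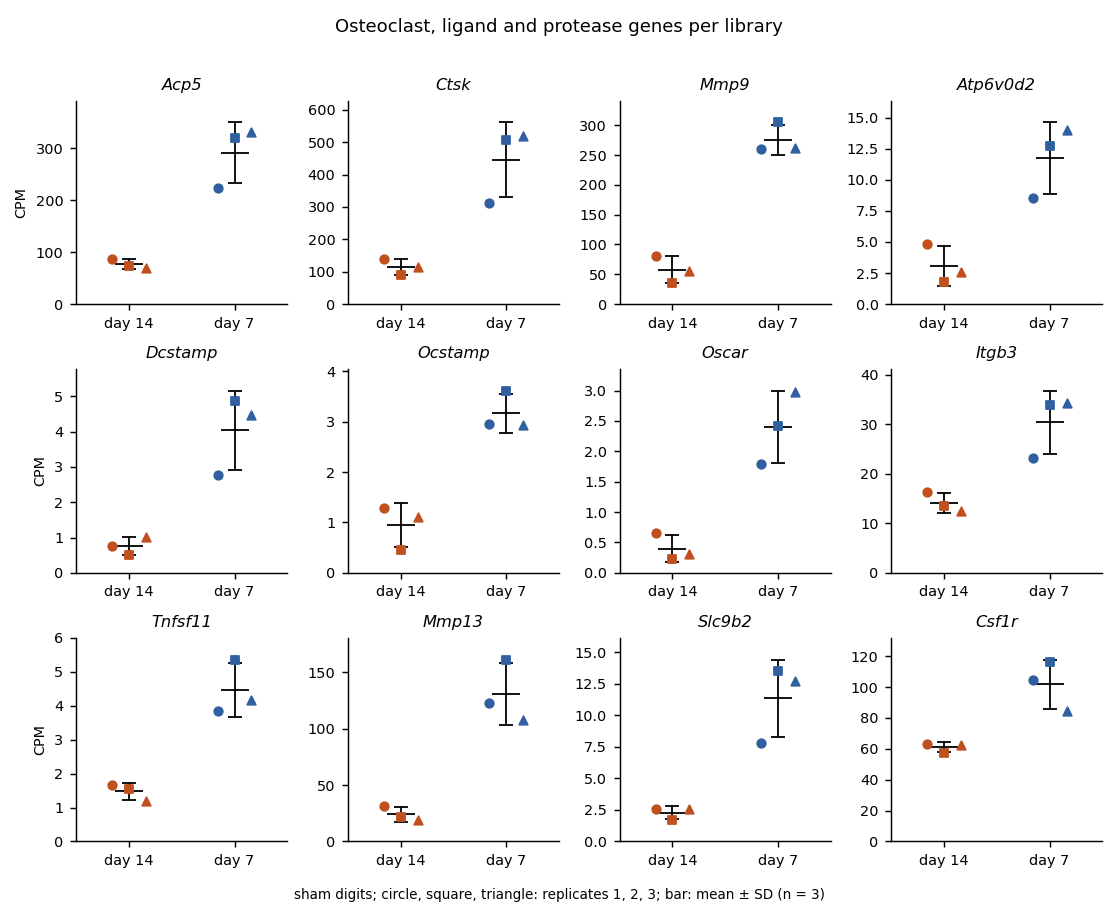
Genes of osteoclasts, their precursors and matrix breakdown in the 6 sham libraries, in CPM on axes that start at 0, with day 14 left of day 7; each point is 1 library and the bar is the mean with its SD (n = 3). The 12 genes drawn are among those lower at day 14 without overlap, Acp5 at 70.0 to 87.7 CPM against 224 to 331 CPM. Members of the same lists that overlapped are not drawn.

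A further pair of genes of acid transport and matrix breakdown was among the 5 that fell in the 6-library fit. The sodium/proton exchanger Slc9b2, which osteoclasts express, had 2.59, 1.68 and 2.60 CPM at day 14 and 7.84, 13.5 and 12.7 CPM at day 7, a 6-library log2 fold change of -2.32 ± 0.27 with an adjusted p of 0.0449 by edgeR. The collagenase Mmp13, made by hypertrophic chondrocytes and osteoblasts, had 31.8, 21.5 and 19.5 CPM at day 14 and 123, 161 and 108 CPM at day 7 (-2.43 ± 0.23, adjusted p 0.0367). For both genes every day 7 library was over 3 times the highest day 14 library. Matrix proteases and inhibitors as a list, Mmp13 included, were balanced: of 19 tested, 9 were higher and 10 lower. Of these 1 separated upwards and 4 downwards, against 8.11% and 9.39% of all genes. The median was -0.15, which turned to 0.06 without day 14 replicate 3. Stromelysin 1 (Mmp3) had 5.45, 3.78 and 3.54 CPM at day 14 and 20.9, 31.3 and 11.5 CPM at day 7. The inhibitor Timp1 had 17.5, 14.6 and 17.2 CPM at day 14 and 31.0, 48.2 and 32.1 CPM at day 7. Both were lower at day 14 in every library, by -2.32 ± 0.97 and -1.18 ± 0.67, and did not pass either fit.

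Genes of bone formation ran the other way. Osteomodulin (Omd), a keratan sulphate proteoglycan of bone matrix, had 30.1, 32.9 and 36.0 CPM at day 14 and 16.3, 12.0 and 11.8 CPM at day 7. The days were well apart, and Omd rose in the 6-library fit, with a log2 fold change of 1.31 ± 0.15 and an adjusted p of 0.0449 by edgeR. Osteocalcin (Bglap), the product of mature osteoblasts, had 169, 145 and 94.1 CPM at day 14 and 20.9, 50.6 and 32.8 CPM at day 7, a log2 fold change of 1.97 ± 1.12. Its near-identical neighbour Bglap2 had 73.2, 63.3 and 46.6 CPM at day 14 and 10.4, 23.8 and 18.9 CPM at day 7, and reads could be split between the copies, so that their separate levels are uncertain. The osteoblast transcription factor Sp7 (osterix) had 13.9, 9.52 and 12.3 CPM at day 14 and 8.15, 4.69 and 4.15 CPM at day 7 (1.07 ± 0.79). None of the 3 passed the threshold.

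Fibrillar collagen of bone was higher at day 14, with wide spread. Col1a1 had 7461, 4526 and 5852 CPM at day 14 and 3742, 2317 and 1442 CPM at day 7. Col1a2 had 6246, 4418 and 5257 CPM at day 14 and 2868, 2318 and 1609 CPM at day 7. Both separated the days, yet in the fit of 17 libraries the log2 fold changes, 1.25 ± 1.44 and 1.23 ± 0.93, were close to their errors. In the 6-library fit they were 1.26 ± 0.34 and 1.23 ± 0.22, and neither gene was called there. The first principal component of all 17 libraries carried 63.7% of the variance. On it day 14 scored -74.23, -59.58 and -65 and day 7 -75.46, -36.56 and -22.36. Within each of these days, the lower that score, the higher was Col1a1. The part of this difference between libraries in the bone, cartilage and collagen values was not tested. The parathyroid hormone receptor Pth1r had 38.3, 39.0 and 49.6 CPM at day 14 and 30.2, 27.7 and 23.3 CPM at day 7 (0.65 ± 0.31) and also separated. Other early or mineralising markers overlapped. Alkaline phosphatase (Alpl) had 106, 106 and 114 CPM at day 14 and 108, 68.3 and 40.4 CPM at day 7. Bone sialoprotein (Ibsp) had 184, 200.0 and 311 CPM at day 14 and 224, 186 and 99.7 CPM at day 7. Runx2, the factor that commits cells to the osteoblast lineage, had 15.5, 10.8 and 16.5 CPM at day 14 and 12.2, 10.1 and 7.95 CPM at day 7. Each of these 3 was highest at day 7 in replicate 1. The sphingomyelinase Smpd3, a regulator of mineralisation, had 193, 173 and 179 CPM at day 14 and 195, 128 and 116 CPM at day 7. The membrane protein Ifitm5 had 4.17, 4.02 and 5.36 CPM at day 14 and 4.49, 2.12 and 0.986 CPM at day 7. Both also reached the day 14 range in day 7 replicate 1. The homeobox gene Dlx5 had 24.1, 24.1 and 22.8 CPM at day 14 and 26.8, 20.4 and 20.6 CPM at day 7. There, too, day 7 replicate 1 was the highest library of its day. Osteopontin (Spp1), which osteoclasts and macrophages make too, was the 1 member with a lower fitted value, at 159, 115 and 175 CPM at day 14 and 170.1, 268 and 254 CPM at day 7.

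Of the 15 osteoblast genes, all tested, 14 were higher at day 14 in the fit and 7 lay above day 7 without overlap, against 8.11% of all genes; the median log2 fold change was 0.65. Without day 7 replicate 1 the count without overlap was 12, but the background was then 27.1% of all genes, and the median ran from 0.45 to 1.0 over the fits with 1 library left out. Osteocyte genes had the same sign with smaller values. Sclerostin (Sost), the Wnt inhibitor that osteocytes embedded in bone secrete, had 5.47, 2.46 and 2.67 CPM at day 14 and 0.781, 0.917 and 1.03 CPM at day 7, a log2 fold change of 1.96 ± 0.86. The matrix phosphoprotein Dmp1 had 22.2, 11.9 and 17.2 CPM at day 14 and 8.31, 9.84 and 6.44 CPM at day 7. Phex, the gene mutated in human X-linked hypophosphataemia, had 10.6, 6.01 and 7.77 CPM at day 14 and 3.15, 5.69 and 3.08 CPM at day 7. All 3 genes were higher in every day 14 library. The remaining members overlapped. The matrix protein Mepe had 2.49, 1.07 and 1.06 CPM at day 14 and 1.09, 1.63 and 1.30 CPM at day 7. The phosphatase Phospho1 had 84.7, 91.7 and 116 CPM at day 14 and 80.9, 84.6 and 84.8 CPM at day 7. The pyrophosphate-making Enpp1 had 25.2, 21.6 and 27.9 CPM at day 14 and 28.3, 23.8 and 22.4 CPM at day 7. For these 3 genes the ranges of the days met. The kinase Fam20c had 15.0, 9.99 and 12.0 CPM at day 14 and 10.2, 10.6 and 9.69 CPM at day 7. All 7 tested members of the 9 had a positive sign, that of Enpp1 at 0.00 ± 0.37, and the median was 0.28. Of the 7, 3 separated the days, against 8.11% of all genes. Fgf23 had 1 count in all at each day and was not tested, and Ankh was not found by that symbol.

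**Figure D2:**
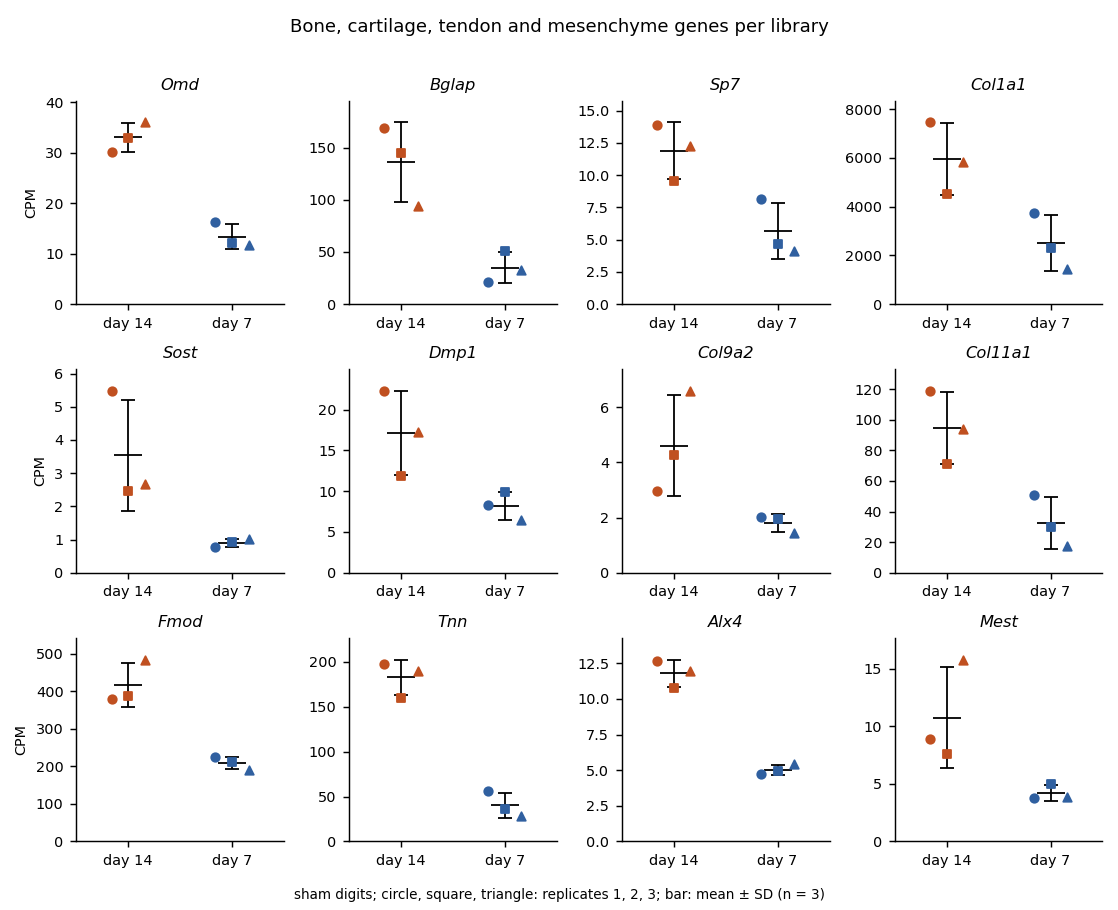
Bone, cartilage, tendon and mesenchyme genes in the 6 sham libraries, in CPM on axes that start at 0, with day 14 left of day 7; each point is 1 library and the bar is the mean with its SD (n = 3). The 12 genes drawn are among those higher at day 14 without overlap, with Omd at 30.1 to 36.0 CPM against 11.8 to 16.3 CPM. Members of the same lists that overlapped are not drawn.

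Cartilage and tendon genes were higher at day 14 as well. The type IX collagen chain Col9a2 had 2.96, 4.27 and 6.59 CPM at day 14 and 2.01, 1.96 and 1.45 CPM at day 7 (1.35 ± 0.58). Col11a1, a chain of the fibrils of cartilage and of young bone, had 119, 71.4 and 94.1 CPM at day 14 and 51.0, 29.7 and 17.4 CPM at day 7. Aggrecan (Acan), the large proteoglycan of cartilage, had 37.2, 30.8 and 59.4 CPM at day 14 and 24.6, 19.9 and 14.6 CPM at day 7. In all 3 genes every day 14 library was the higher, though the errors of Col11a1 (1.53 ± 1.24) and Acan (1.11 ± 0.91) were wide. The aggrecan link protein Hapln1 had 6.80, 8.20 and 10.1 CPM at day 14 and 4.55, 4.91 and 4.32 CPM at day 7. It separated the days too. The type II collagen gene Col2a1 overlapped, at 16.2, 32.2 and 38.8 CPM at day 14 and 9.24, 19.6 and 8.37 CPM at day 7 (1.23 ± 0.93). Of 13 cartilage genes tested, of 15 listed, 12 were higher and 8 lay above day 7 without overlap, against 8.11% of all genes. In that list 1 lay below, against 9.39% of all genes, and the median was 1.11, the highest of the skeletal lists. In the tendon list all 8 tested genes were higher and 5 did not overlap, against the same 8.11%, with a median of 0.51. Fibromodulin (Fmod), a small proteoglycan of tendon collagen, had 379, 386 and 484 CPM at day 14 and 225, 210.3 and 191 CPM at day 7. Thrombospondin 4 (Thbs4) had 115, 102 and 109.9 CPM at day 14 and 76.8, 66.0 and 73.9 CPM at day 7. Thbs2 had 114, 109.8 and 136 CPM at day 14 and 82.8, 64.2 and 49.9 CPM at day 7. All 3 were higher in every day 14 library. The tendon transcription factor Scx had 6.45, 6.50 and 5.89 CPM at day 14 and 4.33, 4.93 and 5.12 CPM at day 7. Tenomodulin (Tnmd) had 17.7, 15.5 and 17.4 CPM at day 14 and 10.2, 14.1 and 14.2 CPM at day 7, a smaller separation. Kera overlapped, at 8.22, 5.26 and 7.21 CPM at day 14 and 3.26, 6.24 and 5.91 CPM at day 7. The joint and tendons proximal to the stump were part of the sample, and their share in these levels was not tested.

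Among mesenchymal genes of the blastema, 11 of 12 were higher at day 14 and 7 did not overlap, against 8.11% of all genes, with a median of 0.28. Msx1, a homeobox gene of the regenerating tip, had 34.3, 34.7 and 35.5 CPM at day 14 and 23.6, 26.0 and 23.7 CPM at day 7. Msx2, which marks nail matrix and bone as well, had 53.6, 38.0 and 31.2 CPM at day 14 and 17.9, 19.5 and 29.6 CPM at day 7. Both separated the days, Msx2 by little. Mest, an imprinted gene of growing mesenchyme, had 8.92, 7.55 and 15.8 CPM at day 14 and 3.75, 5.01 and 3.82 CPM at day 7 (1.36 ± 0.46). The matrix protein periostin (Postn) had 534, 505 and 508 CPM at day 14 and 360.1, 350.5 and 243 CPM at day 7. Cthrc1, a secreted protein of remodelling tissue, had 16.1, 13.7 and 18.6 CPM at day 14 and 9.47, 7.87 and 7.11 CPM at day 7. All 3 were higher in every day 14 library. Prrx1, a marker of limb mesenchyme, had 84.7, 74.0 and 97.5 CPM at day 14 and 75.8, 76.4 and 64.3 CPM at day 7. The growth factor receptor Pdgfra had 80.6, 66.7 and 84.7 CPM at day 14 and 105, 88.5 and 64.0 CPM at day 7. Both overlapped, and Pdgfra was the 1 member with a negative sign. Hox, Tbx and other digit patterning genes were balanced in sign, with 6 of 11 higher. Their median of 0.00 was negative or positive depending on the library left out. Of the 11, 3 lay above day 7 without overlap and none below, against 8.11% and 9.39% of all genes. Among those 3 was Dlx6, at 2.52, 3.30 and 2.57 CPM at day 14 and 1.34, 1.49 and 1.34 CPM at day 7. Of 16 collagen genes of many tissues 15 were higher and 6 separated the days, against the same 8.11%, with a median of 0.62. Col12a1, a collagen of periosteum and tendon, had 242, 168 and 266 CPM at day 14 and 149.7, 88.7 and 64.8 CPM at day 7. Without day 7 replicate 1, 15 of the 16 collagen genes separated the days, against 27.1% of all genes, and without day 14 replicate 2, 11 did, against 12.6%.

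Besides Omd, 5 genes rose in the 6-library fit. Tenascin-W (Tnn), a matrix protein of periosteum and forming bone, had 198, 160.2 and 189 CPM at day 14 and 55.7, 36.4 and 28.5 CPM at day 7, a 6-library log2 fold change of 2.19 ± 0.23 with an adjusted p of 0.0449 by edgeR. Alx4, a homeobox gene of limb and skull mesenchyme, had 12.7, 10.8 and 11.9 CPM at day 14 and 4.76, 4.93 and 5.43 CPM at day 7 (1.23 ± 0.14, adjusted p 0.0449). For both genes the lowest day 14 library was about double the highest day 7 library or more. Cgref1, a secreted protein with calcium-binding EF hands, had 13.1, 12.0 and 13.7 CPM at day 14 and 6.59, 5.12 and 5.89 CPM at day 7 (1.14 ± 0.14, adjusted p 0.0449), again with no overlap. The zinc finger factor Zic2 had 1.58, 1.66 and 1.71 CPM at day 14 and 0.179, 0.306 and 0.315 CPM at day 7. The potassium channel Kcnj10 had 1.23, 1.51 and 1.30 CPM at day 14 and 0.313, 0.285 and 0.189 CPM at day 7. Zic2 and Kcnj10 averaged under 1 CPM and are named because they complete the list of calls, a choice made after their values were seen. Their 6-library log2 fold changes were 2.61 ± 0.28 and 2.35 ± 0.27, each with an adjusted p of 0.0449 by edgeR.

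The remaining genes that fell were Mt3 and Pi16. Mt3, a metallothionein that binds zinc and copper, had 0.978, 0.973 and 0.866 CPM at day 14 and 3.88, 5.89 and 6.25 CPM at day 7 (-2.51 ± 0.24, adjusted p 0.0367 by edgeR). Pi16, a secreted peptidase inhibitor of skin fibroblasts, had 113, 110.2 and 105 CPM at day 14 and 213, 238 and 188 CPM at day 7 (-0.96 ± 0.11, adjusted p 0.0449). Day 14 libraries of both genes lay close together and well under day 7.

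Macrophage, neutrophil and inflammatory cytokine genes were lower at day 14. Csf1r, the receptor that macrophages and osteoclast precursors depend on, had 63.1, 57.5 and 62.7 CPM at day 14 and 105, 116 and 84.5 CPM at day 7. The lysosomal marker Cd68, which osteoclasts share, had 15.7, 13.6 and 18.0 CPM at day 14 and 26.5, 36.8 and 27.8 CPM at day 7. Both separated the days, by -0.74 ± 0.31 and -0.94 ± 0.34. The complement gene C1qc had 28.1, 29.1 and 32.1 CPM at day 14 and 51.7, 68.2 and 48.0 CPM at day 7. The haemoglobin scavenger receptor Cd163 had 6.94, 9.52 and 10.9 CPM at day 14 and 27.1, 22.6 and 11.4 CPM at day 7. The mannose receptor Mrc1 had 22.8, 23.3 and 25.5 CPM at day 14 and 42.0, 51.5 and 25.0 CPM at day 7. Only Mrc1 among these overlapped, through day 7 replicate 3. Of 16 macrophage genes 14 were lower and 11 did not overlap, against 9.39% of all genes, with a median of -0.73. Their sum was 312, 292 and 327 CPM at day 14 and 479, 648 and 463 CPM at day 7. The osteoclast lists moved the same way as these macrophage genes, and the part of macrophages in the shared markers was not tested.

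Neutrophil genes were scarce at both days and lower at day 14, with all 12 of negative sign and a median of -1.71. Of these 5 did not overlap, against 9.39% of all genes. The calprotectin subunit S100a8 had 2.12, 2.29 and 2.26 CPM at day 14 and 12.5, 5.05 and 6.48 CPM at day 7. Its partner S100a9 had 2.89, 2.00 and 3.29 CPM at day 14 and 13.4, 6.30 and 9.27 CPM at day 7. The granule protein Lcn2 had 1.40, 1.66 and 1.44 CPM at day 14 and 4.60, 3.91 and 2.73 CPM at day 7. For these 3 genes the day 14 libraries lay closer together than those of day 7. Their log2 fold changes, -1.85 ± 1.49 for S100a8, -1.82 ± 1.47 for S100a9 and -1.32 ± 1.18 for Lcn2, were close to their errors. Mpo, Ltf and Ngp overlapped between the days, Ngp at 2.21, 1.83 and 4.30 CPM at day 14 and 10.1, 1.81 and 7.21 CPM at day 7. Inflammatory cytokine genes were lower in 13 of 14 cases and separated in 9, against 9.39% of all genes, with a median of -1.0. Their sum differed less, at 81.5, 84.4 and 81.2 CPM at day 14 and 94.1, 94.6 and 89.3 CPM at day 7. Il1rn and Il1a made up most of that sum, with log2 fold changes of -0.07 ± 0.27 and -0.03 ± 0.25. The median was thus set by genes of low counts. The monocyte attractant Ccl2 had 1.05, 1.03 and 1.11 CPM at day 14 and 1.25, 2.85 and 2.50 CPM at day 7. The cytokine Lif had 3.63, 3.20 and 2.09 CPM at day 14 and 5.05, 6.20 and 3.65 CPM at day 7. T cell genes (8 of 9 lower, 2 without overlap, median -0.21) and interferon response genes (10 of 11 lower, 1 without overlap, median -0.39) had medians closer to that of all genes. Their counts without overlap stand beside 9.39% of all genes. Without day 7 replicate 1 the counts without overlap were 4 of 9 T cell genes and 6 of 11 interferon response genes, against 23.7% of all genes. Of B and plasma cell genes 6 were tested, with a median of -0.43, and of mast cell genes 9, with a median of -0.19 that turned to 0.03 without day 7 replicate 2. None of either list separated the days. Erythroid genes, a gauge of blood in the sample, were lower in 7 of 8 tested, of 10 listed, but none separated. The haemoglobin chain Hba-a1, which has a near-identical copy, had 163, 165 and 119 CPM at day 14 and 146, 529 and 450.3 CPM at day 7, so that day 7 replicate 1 sat with day 14. Without that library 6 of the 8 separated, against 23.7% of all genes. The erythroid sum was 183, 181 and 131 CPM at day 14 and 161, 589 and 503 CPM at day 7, and the part of blood in the immune values was not tested.

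Immediate early and stress genes were lower at day 14. Fos, an AP-1 subunit that cells switch on within minutes of a stimulus, had 20.1, 19.9 and 6.69 CPM at day 14 and 77.7, 67.1 and 80.4 CPM at day 7 (-2.27 ± 0.86). The phosphatase Dusp1, which shuts off MAP kinases, had 71.5, 63.2 and 43.4 CPM at day 14 and 165, 146 and 144 CPM at day 7 (-1.35 ± 0.41). In both genes every day 7 library was about double every day 14 library or more. Ier2 had 84.5, 95.2 and 73.1 CPM at day 14 and 107, 111 and 132 CPM at day 7. The stress factor Atf3 had 5.08, 4.42 and 5.00 CPM at day 14 and 6.63, 6.83 and 17.0 CPM at day 7. Of 11 genes 9 were lower, 6 did not overlap, against 9.39% of all genes, and the median was -0.47.

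The genes with the smallest p in the fit of 17 libraries, none called, that were lower at day 14 included Tsc22d3, a leucine zipper protein that glucocorticoids induce, with 35.4, 59.9 and 72.9 CPM at day 14 and 246, 90.8 and 112 CPM at day 7. The thioredoxin-binding arrestin Txnip had 189, 245 and 215 CPM at day 14 and 490.4, 340.1 and 290.2 CPM at day 7. The EGF receptor inhibitor Errfi1 had 83.7, 78.2 and 73.5 CPM at day 14 and 146, 116 and 120.1 CPM at day 7. All 3 were lower at day 14 without overlap, by -1.41 ± 0.40 for Tsc22d3, -0.79 ± 0.23 for Txnip and -0.70 ± 0.21 for Errfi1, and day 7 replicate 1 was the highest library of each. The same set held the arrestin Arrdc3 (-0.64 ± 0.18), the G protein Rasd1 (-0.90 ± 0.27), the lactate transporter Slc16a1 (-0.60 ± 0.17) and the chemokine Ccl19, at 1.49, 1.35 and 1.13 CPM at day 14 and 2.95, 6.18 and 2.68 CPM at day 7 (-1.57 ± 0.39). Genes of the same rank that were higher at day 14 were Pycr1, an enzyme of proline synthesis, at 2.77, 1.74 and 2.74 CPM at day 14 and 0.871, 1.35 and 1.05 CPM at day 7 (1.15 ± 0.35), the metal reductase Steap2 (0.70 ± 0.22), the RNA-binding protein Tardbp (0.49 ± 0.16), the Piwi protein Piwil2 (0.79 ± 0.25) and the cornified envelope gene Sprr2h, at 27.9, 28.9 and 18.8 CPM at day 14 and 14.9, 10.9 and 9.88 CPM at day 7 (1.09 ± 0.35).

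Keratin genes of the nail and hair were higher at day 14 in the fit, with a wide spread between libraries. Hard keratins are the filament proteins of nail plate and hair shaft, made by the matrix cells below the nail. They are cross-linked by the sulphur-rich keratin-associated proteins (Krtap genes). The 13 hard keratin genes tested, of 14 listed, all had positive fold changes, with a median of 1.13, but only 4 separated the days. The share over all genes was 8.11%. Krt86 had 634, 317 and 191 CPM at day 14 and 105, 82.7 and 129 CPM at day 7, a log2 fold change of 1.85 ± 0.95. Krt34 had 599, 311 and 156 CPM at day 14 and 81.0, 78.0 and 162 CPM at day 7 (1.73 ± 0.86), and its lowest day 14 library lay just under the highest of day 7. Krt31 had 745, 587 and 389.6 CPM at day 14 and 163, 154 and 452 CPM at day 7 and overlapped. The same pattern, with day 7 replicate 3 well above its fellows, was seen in Krt32 and Krt33b. Krt32 had 109, 78.6 and 73.7 CPM at day 14 and 33.9, 19.4 and 72.7 CPM at day 7, and Krt33b had 682, 468 and 265 CPM at day 14 and 134, 121 and 405 CPM at day 7. Krt32 just separated the days and Krt33b did not. Krt82 had 119.6, 86.7 and 71.1 CPM at day 14 and 34.1, 22.9 and 70.7 CPM at day 7, and just separated too. Krt84, a keratin of nail, had 540.5, 504 and 551 CPM at day 14 and 179, 306 and 498 CPM at day 7, and just separated. Krt36 had 535, 609.9 and 554 CPM at day 14 and 217, 374 and 584 CPM at day 7, with overlap. In each of these genes day 7 replicate 3 was the highest of its day, and without that library all 13 of the list separated the days, against 12.8% of all genes. Without day 14 replicate 3, 12 of the 13 did, against 11.3%.

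All 53 tested Krtap genes were higher at day 14 in the fit, 36 of them without overlap, against 8.11% of all genes. Their median of 1.79 ran from 1.26 to 2.09 with 1 library left out. Krtap15 had 220.0, 53.5 and 21.8 CPM at day 14 and 7.26, 18.6 and 18.9 CPM at day 7 (2.72 ± 1.08). Krtap31-1 had 40.5, 16.0 and 7.29 CPM at day 14 and 2.90, 2.89 and 3.59 CPM at day 7 (2.76 ± 1.10). In both genes day 14 replicate 1 was more than double the other day 14 libraries. Many Krtap genes are near-identical copies, so that single members are uncertain. The summed Krtap level was 7660, 4309.5 and 2261 CPM at day 14 and 1228, 1269.8 and 1967 CPM at day 7, and that of the hard keratins was 7071, 5176 and 3764 CPM at day 14 and 1607, 1758 and 4046 CPM at day 7. The part of the amount of nail matrix in each sample in these values was not tested. Regulators of nail and hair matrix were higher in 13 of 14 cases and separated in 6, against 8.11% of all genes, with a median of 0.88. Without day 7 replicate 3, 11 separated upwards, against 12.8% of all genes.

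The 7 hard keratin promoters found in the reference are all shown because the genes of that list lay together on the higher side at day 14, and that of Bglap because it is the osteoblast gene with the highest fold change. Windows are the 250 bases before the transcription start, from RefSeq on build GRCm38.p6, all on the minus strand, while the deposited counts rest on GRCm39. Capitals mark the letters TATAAA, searched on the plus strand only and called the TATA box here. They also mark CTTTGA, the letters bound by TCF/LEF factors, through which Wnt signals act. Krt36, Krt82 and Krt84 hold no match and so have no capitals. In Bglap the capitals also mark TGTGGT, the letters bound by RUNX factors, which lies on the opposite strand and so reads ACCACA. Bglap lies at chr3:88384467-88384716, Krt31 at chr11:100050552-100050801, Krt32 at chr11:100088270-100088519, Krt33b at chr11:100029869-100030118, Krt34 at chr11:100041555-100041804, Krt36 at chr11:100105627-100105876, Krt82 at chr15:101550660-101550909 and Krt84 at chr15:101532821-101533070.
Bglap: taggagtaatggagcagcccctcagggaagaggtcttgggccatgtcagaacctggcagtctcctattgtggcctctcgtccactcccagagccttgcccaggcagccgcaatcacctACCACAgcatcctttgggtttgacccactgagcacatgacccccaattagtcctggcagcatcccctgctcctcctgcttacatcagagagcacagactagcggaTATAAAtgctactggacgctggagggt
Krt31: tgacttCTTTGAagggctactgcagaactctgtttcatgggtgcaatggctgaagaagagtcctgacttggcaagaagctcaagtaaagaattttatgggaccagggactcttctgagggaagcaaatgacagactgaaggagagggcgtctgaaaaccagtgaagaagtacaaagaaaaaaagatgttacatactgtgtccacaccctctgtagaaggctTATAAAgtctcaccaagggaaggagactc
Krt32: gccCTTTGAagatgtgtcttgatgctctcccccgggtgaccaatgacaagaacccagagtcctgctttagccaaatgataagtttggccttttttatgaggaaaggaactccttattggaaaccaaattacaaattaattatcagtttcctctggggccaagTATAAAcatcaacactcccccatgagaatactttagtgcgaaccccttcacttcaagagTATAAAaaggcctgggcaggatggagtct
Krt33b: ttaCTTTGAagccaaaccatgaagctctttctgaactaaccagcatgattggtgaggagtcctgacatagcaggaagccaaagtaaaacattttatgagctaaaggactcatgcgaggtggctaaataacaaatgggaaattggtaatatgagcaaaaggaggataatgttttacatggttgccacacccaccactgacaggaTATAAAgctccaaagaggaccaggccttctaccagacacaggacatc
Krt34: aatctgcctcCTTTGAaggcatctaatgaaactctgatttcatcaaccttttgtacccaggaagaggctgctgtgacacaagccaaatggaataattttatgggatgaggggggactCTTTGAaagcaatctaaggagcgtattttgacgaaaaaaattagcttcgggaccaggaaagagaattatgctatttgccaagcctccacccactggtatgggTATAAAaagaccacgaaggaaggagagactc
Krt36: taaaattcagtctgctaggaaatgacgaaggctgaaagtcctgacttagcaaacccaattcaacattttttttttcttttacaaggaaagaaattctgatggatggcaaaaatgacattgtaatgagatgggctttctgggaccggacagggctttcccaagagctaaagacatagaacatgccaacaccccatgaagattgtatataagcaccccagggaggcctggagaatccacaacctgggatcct
Krt82: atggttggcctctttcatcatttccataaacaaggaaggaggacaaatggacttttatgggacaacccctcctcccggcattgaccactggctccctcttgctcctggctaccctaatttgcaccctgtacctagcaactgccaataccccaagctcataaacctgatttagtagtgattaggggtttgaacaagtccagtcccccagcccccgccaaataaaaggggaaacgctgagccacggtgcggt
Krt84: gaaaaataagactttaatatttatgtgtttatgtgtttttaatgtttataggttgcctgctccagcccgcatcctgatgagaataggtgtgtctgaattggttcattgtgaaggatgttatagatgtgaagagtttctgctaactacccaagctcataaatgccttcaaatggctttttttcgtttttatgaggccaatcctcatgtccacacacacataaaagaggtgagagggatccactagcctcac

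In Bglap the RUNX letters stand 132 to 127 bases and the TATA box 27 to 22 bases before the start. Of the 7 keratin windows, those of Krt31, Krt32, Krt33b and Krt34 hold the exact letters TATAAA and CTTTGA. Those of Krt36, Krt82 and Krt84 hold neither of these exact strings. Variants, such as the tatataa in the Krt36 window, were not searched. The TATA box stands at 29 to 24 bases in Krt31 and Krt32, 31 to 26 in Krt34 and 47 to 42 in Krt33b, and the TCF/LEF letters begin 244 bases before the start in Krt31, 247 in Krt32 and Krt33b and 240 in Krt34. Krt34 has another TCF/LEF match at 133 to 128 bases and Krt32 another TATA box at 88 to 83 bases. Position by position from the start, the 7 keratin windows had the same base at 19.6% to 34.4% of positions, pair by pair. The other 6 of the 13 tested hard keratin genes were not matched, and none of the 7 windows held TGTGGT or the AP-1 letters TGANTCA on either strand. Over all 32851 promoters the shares were 7.59% for TATAAA, 13.8% for CTTTGA, 14% for TGTGGT and 6.75% for TGANTCA. Of the osteoblast list 9 of 15 genes matched, with 13 promoters, of which 3 held TGTGGT (Bglap, Runx2 and Spp1), 3 held CTTTGA, 2 TATAAA and none TGANTCA. Of the resorption list 6 of 9 genes matched, with 12 promoters, of which 2 held TGTGGT (both of Clcn7) and 1 CTTTGA (Acp5). The 7 promoters of the 4 matched differentiation and fusion genes held none of these letters, and the 8 promoters of the 7 osteocyte genes held TGTGGT in 3 (Dmp1, Enpp1 and Mepe). Matches are a description of letters and say nothing of binding.

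In the epidermis, genes of wound keratinocytes were higher at day 14 in 8 of 9 cases, with a median of 0.49. Of these 3 did not overlap, against 8.11% of all genes. Sprr1a, a cornified envelope protein of activated keratinocytes, had 480.5, 218 and 203 CPM at day 14 and 104, 112 and 145 CPM at day 7 (1.32 ± 0.47). Its relative Sprr1b had 565, 588 and 389 CPM at day 14 and 320.3, 228 and 272 CPM at day 7. Krt16, which nail bed and wounded skin express, had 321, 353 and 147 CPM at day 14 and 126, 139 and 118 CPM at day 7. Day 14 libraries were the higher in all 3 genes. Krt17 had 1125, 831 and 667 CPM at day 14 and 543, 597 and 729.8 CPM at day 7. The Krt17 ranges overlapped. Their sum was 3802, 3246 and 2217.5 CPM at day 14 and 2089, 1882 and 1963 CPM at day 7, in the same order of day 14 libraries as the hard keratins. Basal (7 of 9 higher, 1 without overlap upwards and 1 downwards, median 0.20) and differentiated epidermis (8 of 13 higher, 2 upwards and 1 downwards, median 0.06) had medians nearer that of all genes. The shares over all genes were 8.11% upwards and 9.39% downwards. Without day 7 replicate 1, 6 of 9 basal, 6 of 13 differentiated and 6 of 9 wound keratinocyte genes separated upwards, against 27.1% of all genes. In melanocyte genes the median of 6 was -0.30, which turned to 0.23 without day 7 replicate 3, and in the 2 Merkel cell genes tested it was 0.31. Basal Krt5 had 4699, 4748 and 4995 CPM at day 14 and 4364, 4076 and 4172 CPM at day 7. Suprabasal Krt1 had 14995, 16831 and 15993 CPM at day 14 and 13251, 10140.0 and 13372 CPM at day 7.

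**Figure D3:**
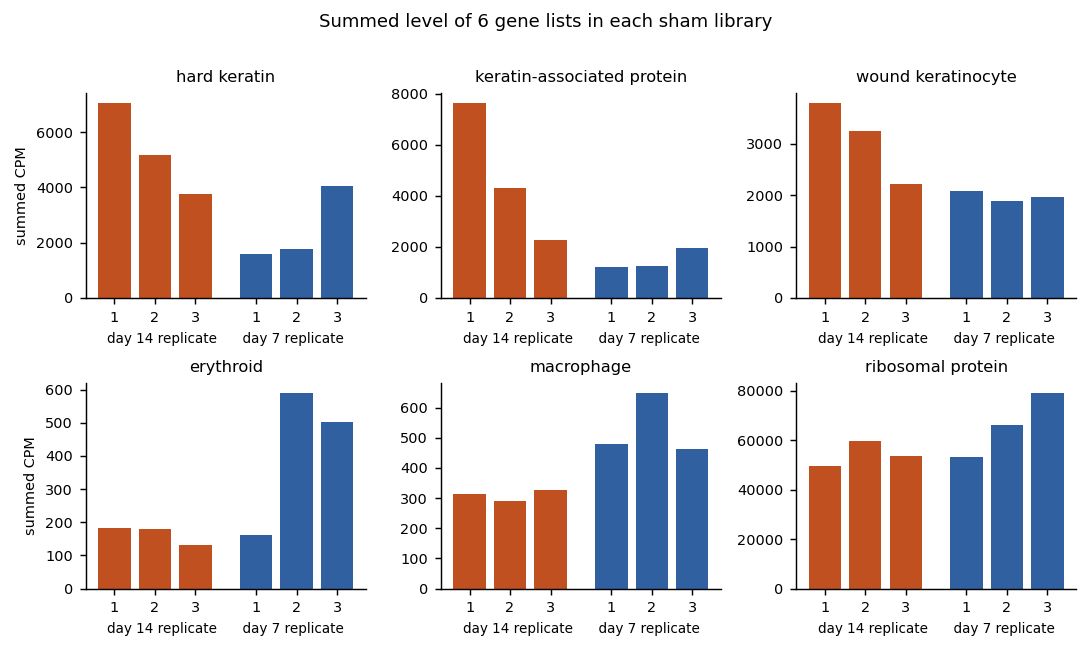
Summed CPM of 6 gene lists in the 6 sham libraries, on axes that start at 0, with day 14 left of day 7; each bar is 1 library. The macrophage sums separate the days (292 to 327 CPM against 463 to 648 CPM), while hard keratin overlaps through day 7 replicate 3 at 4046 CPM and erythroid through day 7 replicate 1 at 161 CPM.

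Signalling genes were mixed, and their counts without overlap stand beside 8.11% upwards and 9.39% downwards over all genes. Of 17 Wnt ligands and R-spondins 12 were higher at day 14, 4 separated upwards and 1 downwards, with a median of 0.07. Rspo4, the R-spondin whose loss prevents nail formation in humans, had 6.06, 7.80 and 5.89 CPM at day 14 and 3.26, 3.77 and 3.69 CPM at day 7 (0.88 ± 0.45). Wnt3a had 4.38, 4.98 and 6.45 CPM at day 14 and 3.39, 3.18 and 4.13 CPM at day 7 (0.56 ± 0.24). Both separated the days. Wnt inhibitors and targets were higher in 12 of 18 cases, 6 separated upwards and 2 downwards, with a median of 0.24. Sfrp4, a secreted Wnt antagonist expressed in periosteum, was the clearest of the lower ones, at 20.3, 13.9 and 13.4 CPM at day 14 and 30.7, 41.9 and 33.4 CPM at day 7 (-1.16 ± 0.42). BMP pathway genes had a median of 0.06, with 9 of 17 higher and 2 separated, among them the ligand Bmp5 at 10.6, 11.4 and 14.4 CPM at day 14 and 9.04, 9.15 and 6.44 CPM at day 7. FGF pathway genes had a median of -0.12, with 6 of 16 higher and 2 separated upwards and 3 downwards. The ligand Fgf10 had 6.78, 6.14 and 6.78 CPM at day 14 and 4.76, 4.40 and 3.59 CPM at day 7, higher in every library. TGF-beta genes had a median of 0.23, with 8 of 12 higher and 1 separated each way, and the receptor Tgfbr1 was lower in every day 14 library, at 39.6, 35.0 and 36.5 CPM at day 14 and 52.3, 50.6 and 52.2 CPM at day 7.

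Cell division genes did not separate the days. Of 20 proliferation genes 8 were higher and 12 lower at day 14, none without overlap, and the median was -0.03, between -0.17 and 0.16 with 1 library left out. Mki67, present in dividing cells, had 109.7, 64.5 and 94.3 CPM at day 14 and 117, 34.4 and 31.7 CPM at day 7. Topoisomerase Top2a had 111, 88.9 and 116 CPM at day 14 and 96.0, 72.4 and 84.4 CPM at day 7. Day 7 replicate 1 was the highest library for Mki67 and the others of day 7 the lowest. Blood endothelium (7 of 13 higher, median 0.00), mural cells (7 of 10, 0.17) and lymphatic endothelium (2 of 5, -0.10) had at most 1 member separated each. Schwann myelin genes (11 of 16 higher, 2 separated upwards, median 0.07) and Schwann identity genes (5 of 11 higher, none separated, -0.09) had medians as close to 0. These counts without overlap stand beside 8.11% upwards and 9.39% downwards over all genes, as do the others of this paragraph. Gldn, which organises nodes of Ranvier, was one of the separated myelin genes, at 22.6, 16.5 and 25.7 CPM at day 14 and 13.1, 10.6 and 12.7 CPM at day 7. Hypoxia and glycolysis genes had a median of -0.18, with 9 of 11 lower and 3 separated, against 9.39% of all genes. Without day 7 replicate 1, 8 separated, but the share over all genes was then 23.7%. Adipocyte genes had a median of -0.10, with 8 of 11 lower. Sweat gland genes were all 9 lower by a median of -0.14, and 1 separated. Of 80 ribosomal protein genes 79 were lower, 1 without overlap, with a median of -0.29 that ran from -0.43 to -0.13 with 1 library left out. Without day 7 replicate 1, 78 of the 80 separated, against 23.7% of all genes, and without day 14 replicate 2, 36 did, against 15.7%.

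**Figure D4:**
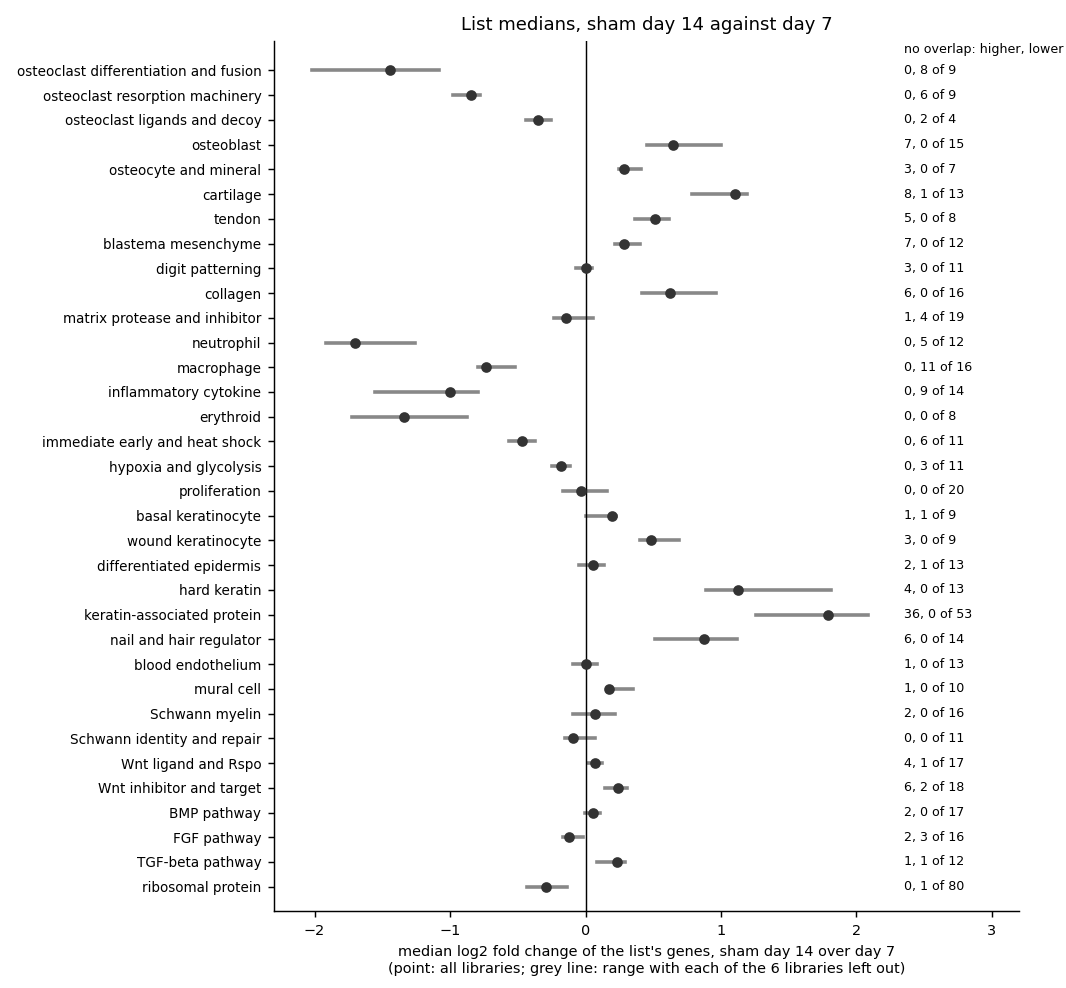
Median log2 fold change of day 14 over day 7 for the main gene lists (points), with a line for the range when 1 of the 6 libraries is left out and the numbers of members without overlap in each direction. Keratin-associated proteins (1.79), hard keratins (1.13) and cartilage (1.11) have the highest medians of the lists drawn, neutrophil genes (-1.71) and osteoclast differentiation and fusion (-1.44) the lowest.

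Whether the sham course differed from that of nerve-injured digits was tested as an interaction, the sham difference between days minus the SNI difference. No gene passed (0 of 16084, 0%), the adjusted p of every gene named here was 0.99998, and 221 genes (1.37%) had an unadjusted p under 0.05. The SNI libraries varied far more than the sham libraries. Acp5 had 298, 97.3 and 779.6 CPM in SNI at day 14 and 206, 297 and 521 CPM in SNI at day 7. Ctsk had 568, 129.7 and 1613 CPM in SNI at day 14 and 344, 493 and 861 CPM in SNI at day 7. Sham day 14, at 87.7, 73.6 and 70.0 CPM of Acp5, lay under every one of these libraries, and the nearest to it was SNI day 14 replicate 2. The interaction was -2.12 ± 0.78 for Acp5 and -2.40 ± 0.92 for Ctsk (log2 ± SE).

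Dcstamp had 7.92, 0.669 and 22.1 CPM in SNI at day 14 and 2.86, 5.11 and 8.80 CPM in SNI at day 7. Tnfsf11 had 10.4, 1.72 and 18.6 CPM in SNI at day 14 and 2.96, 5.02 and 8.93 CPM in SNI at day 7. Mmp13 had 361, 15.6 and 431 CPM in SNI at day 14 and 52.1, 93.5 and 292 CPM in SNI at day 7. The same SNI day 14 replicate 2 was the low library each time and replicates 1 and 3 were high. The interactions were -3.27 ± 1.18 for Dcstamp, -2.46 ± 0.85 for Tnfsf11 and -3.32 ± 1.33 for Mmp13. As list medians between day 14 and day 7, osteoclast differentiation and fusion gave -1.44 in sham and 0.48 in SNI. Resorption genes gave -0.85 in sham and 0.25 in SNI, and osteoblast genes 0.65 in sham and 0.31 in SNI. Hard keratins gave 1.13 in sham and 0.02 in SNI, and Krtap genes 1.79 in sham and -0.08 in SNI. The SNI day 7 group holds a library with a TMM factor of 0.761, replicate 2, which stands apart from the others. Differences between the lists in the 2 surgeries were not tested.

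The genes with the smallest interaction p, none called, were the following. Pi16, which fell in sham digits in the 6-library fit, had 221, 172 and 265 CPM in SNI at day 14 and 187, 77.0 and 109 CPM in SNI at day 7, an interaction of -1.78 ± 0.42. Dusp1 had 183, 127 and 60.0 CPM in SNI at day 14 and 86.3, 48.0 and 46.6 CPM in SNI at day 7 (-2.38 ± 0.57). For both genes sham and SNI differed in sign. AW551984 had 2.33, 2.61 and 2.16 CPM in sham at day 14 and 3.82, 4.36 and 3.63 CPM in sham at day 7, against 5.71, 4.84 and 11.8 CPM in SNI at day 14 and 4.17, 4.14 and 4.08 CPM in SNI at day 7 (-1.58 ± 0.41). In the opposite direction Cgref1 had 13.4, 12.7 and 8.01 CPM in SNI at day 14 and 18.3, 12.2 and 9.75 CPM in SNI at day 7 (1.37 ± 0.39). The hydrolase Abhd1 had 1.17, 0.798 and 0.742 CPM in SNI at day 14 and 1.26, 1.37 and 1.71 CPM in SNI at day 7 (0.97 ± 0.34). The deiminase Padi4, a neutrophil enzyme, had 1.98, 2.60 and 2.10 CPM in SNI at day 14 and 2.94, 29.0 and 1.66 CPM in SNI at day 7 (3.25 ± 1.15). For Padi4 the value rests on the 29.0 CPM of SNI day 7 replicate 2.

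**Figure D5:**
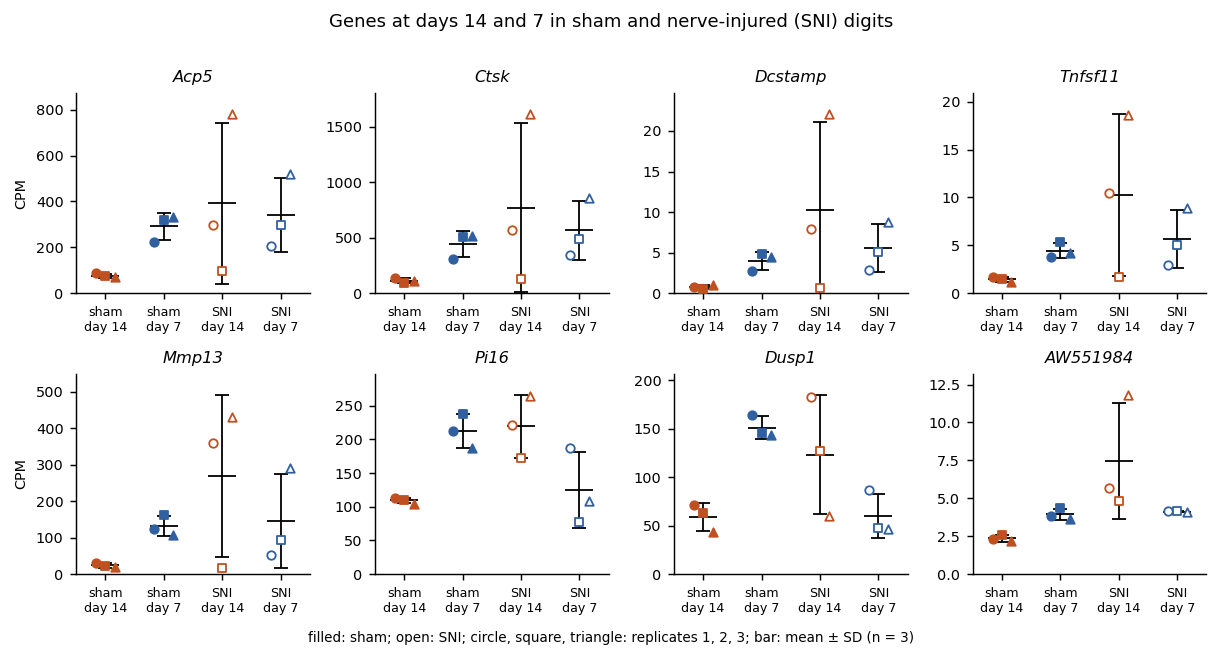
A set of 8 genes in sham day 14, sham day 7, SNI day 14 and SNI day 7, in CPM on axes that start at 0; each point is 1 library and the bar is the mean with its SD (n = 3). Sham day 14 libraries lie close together (Acp5 70.0 to 87.7 CPM), while SNI day 14 ranges from 97.3 to 779.6 CPM for Acp5.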

How the data were processed

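Poly(A) RNA of mouse digits was sequenced as strand-specific libraries from 500 ng of RNA with 9 PCR cycles, per the labels' protocols. The authors deposited raw counts per gene symbol, 24411 symbols in the 17 time course libraries. Per the submitters' processing notes the genome build was GRCm39; the sources used here name no aligner or counter. Genes were filtered with filterByExpr (minimum count 10, minimum total 15), which kept 16084, and over 99.98% of the counts of each of the 6 libraries. They were scaled by TMM and fitted with the edgeR 4.0.16 quasi-likelihood model in R 4.3.3, with a mean per surgery and day over all 17 libraries. A gene was called at a Benjamini-Hochberg adjusted p under 0.05. Library totals were 38847658 to 49758972 counts. CPM uses the TMM-scaled library size. Exact two-sided tests of 3 against 3 single values cannot go below a p of 0.1, so none was used.

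The members and the gene lists were chosen with earlier results of these data known, so lists are described by counts and medians without a test. Alternatives were the 6 libraries alone, RLE factors, no filter, DESeq2 1.42.0, limma 3.58.1 voom with quality weights, a replicate block, log2 CPM with a prior count of 2, omission of libraries of other groups with a TMM factor under 0.8, and omission of each library. The fits of the 6 libraries with 1 omitted, and list counts with 1 omitted, were chosen after seeing the data. Named genes were those called in the 6-library fit and, as uncalled, the 10 each way with the smallest p, with a mean of at least 1 CPM, no predicted gene models and, for the uncalled, no overlap of libraries; up to 6 members of each list and all members of the osteoclast and bone lists; and 3 each way for the interaction. Scripts were tested on simulated data. Promoters came from RefSeq on GRCm38.p6, used for sequence only. The values of 1 list member are not reported here.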

Additional observations from a re-analysis of the deposited data

Results flagged for a closer look

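AW551984 differed between the days in opposite directions in the 2 surgeries. In sham digits it had 2.33, 2.61 and 2.16 CPM at day 14 and 3.82, 4.36 and 3.63 CPM at day 7, so that all 3 day 14 libraries were lower. In SNI digits it had 5.71, 4.84 and 11.8 CPM at day 14 and 4.17, 4.14 and 4.08 CPM at day 7, so that all 3 day 14 libraries were higher. The interaction, sham minus SNI, was -1.58 on the log2 scale with an adjusted p of 0.99998 by edgeR, so the difference did not pass the threshold.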

How the results depend on the processing

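The count of genes called between day 14 and day 7 depended on the model. It was 0 over all 17 libraries, with RLE factors, without the filter, with low-factor libraries of other groups left out, and with any of the 6 libraries left out. It was 2 by DESeq2, 11 with the compared groups alone and 1780 by limma voom with sample quality weights, and between 0 and 2117 when a library was left out of the fit of 6. Same-numbered libraries of the 2 days had correlations of 0.0134, 0.0224 and -0.12 in their deviations from the group means. The labels do not say whether animals were matched, and these values cannot settle it, so the libraries were treated as unpaired. The replicate block called 0 genes over 17 libraries and 3 in the fit of 6, of which 2 were among the 11. For the difference between sham and SNI, DESeq2 called 1 gene and voom 53, and all other settings 0. The cause of these differences was not tested.

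Among genes named in the text, 7 with fold changes near 0 changed sign. With voom the log2 fold change of Clcn7 was 0.055 and that of Mepe -0.16, and without the filter that of Enpp1 was -0.002. With 1 library left out it ran from -0.12 to 0.24 for Nfatc1, from -0.077 to 0.047 for Clcn7, from -0.16 to 0.017 for Tnfrsf11b, from -0.0030 to 0.21 for Dlx5, from -0.34 to 0.40 for Mepe, from -0.088 to 0.11 for Enpp1 and from -0.32 to 0.020 for Pdgfra. List medians near 0 also changed sign with 1 library left out, in digit patterning, matrix protease, proliferation, differentiated epidermis, endothelium of both kinds, both Schwann lists, BMP, mast cell and melanocyte genes. Counts of members without overlap moved by over 1.5 times in most lists, mainly without day 7 replicate 1 or 3 or day 14 replicate 2 or 3. Calcr, Siglec15 and Oscar are limited by depth, with few counts at day 14.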
